A study of Homo sapiens with 3 samples.

Results

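The genes described here encode 10 widely expressed transcription factors that bind CpG-rich promoters: the ETS factors GABPA, ELK1, ELK4, ELF1 and ELF2, the zinc finger factors YY1, SP1 and SP3, NRF1 (nuclear respiratory factor 1), and NFYA, a subunit of the CCAAT-binding factor NFY. They were chosen by name as 10 of 20033 protein-coding genes on chromosomes 1 to 22, X and Y. All peaks from 5 kb upstream of each gene to its end (GENCODE release 44, GRCh38) were taken. The data were 2 peak lists from chromatin immunoprecipitation and sequencing (ChIP-seq) of wild-type neural stem cells derived from the human embryonic stem cell line H9. Of these lists, 1 came from an antibody against CHD8, a chromatin remodeler, and 1 from an antibody against TRRAP, a scaffold of histone acetyltransferase complexes. Cells of both libraries grew with EGF and FGF, no treatment is named for them, and they were fixed first with disuccinimidyl glutarate, which links proteins, and then with formaldehyde. The labels do not say whether a library came from 1 culture or several. With 1 library per antibody there were no replicates, so no p-value was computed and all differences below are descriptions of these libraries. An IgG library was not analysed here.

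CpG-rich promoters often lack a TATA box, and a small set of widely expressed activators binds many of them. ETS factors bind a GGAA core, YY1 binds an ATGG core, NRF1 a GC-rich palindrome, SP1 and SP3 the GC box, and NFY the CCAAT box. Such factors drive genes of housekeeping functions, from mitochondrial respiration (GABPA, NRF1) to the cell cycle (NFY). CHD8 uses ATP to move nucleosomes and is best known from autism, in which its gene is recurrently mutated. TRRAP binds activators and brings histone acetyltransferases to promoters. Whether the genes of these factors carry CHD8 and TRRAP at their own promoters is asked of the peak lists here.

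A CHD8 peak within 1 kb of the start of the canonical transcript (below, a promoter peak) was found at 9 of the 10 genes. Of all protein-coding genes, 55.9% had one, and of those with a CpG-rich promoter (observed over expected CpG of at least 0.6 and GC of at least 50% within 500 bp of the start) 77.9% did. A TRRAP promoter peak was found at 8 of the 10, beside 34.9% of all genes and 50.7% of the genes with a CpG-rich promoter. The same 8 genes had both peaks, beside 34.0% and 49.4%. The exceptions were ELF1, whose peaks lay at another start of the gene, and ELK1, which had 1 weak CHD8 peak and no TRRAP peak. When any annotated start was allowed, all 10 genes had a CHD8 peak (59.2% of all genes) and 9 had a TRRAP peak (38.3% of all genes).

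In all, the 10 gene regions held 18 CHD8 and 21 TRRAP peaks. Of these, 17 CHD8 peaks and 21 TRRAP peaks lay within 1 kb of an annotated start of their own gene, beside 74.7% and 77.0% of the peaks in the regions of all protein-coding genes. The remaining CHD8 peak, at ELF2, had its summit 1328 bp from the nearest start. No summit lay farther than this from an annotated start of its gene, although the genes ran from 15084 bp (ELK1) to 149107 bp (ELF2). Some summits at ELF2 did lie 92813 to 94322 bp downstream of the canonical start, near internal starts. Every one of the 21 TRRAP peaks overlapped a CHD8 peak (91.2% in all gene regions), while 11 of the 18 CHD8 peaks overlapped a TRRAP peak (48.2%).

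**Figure D1:**
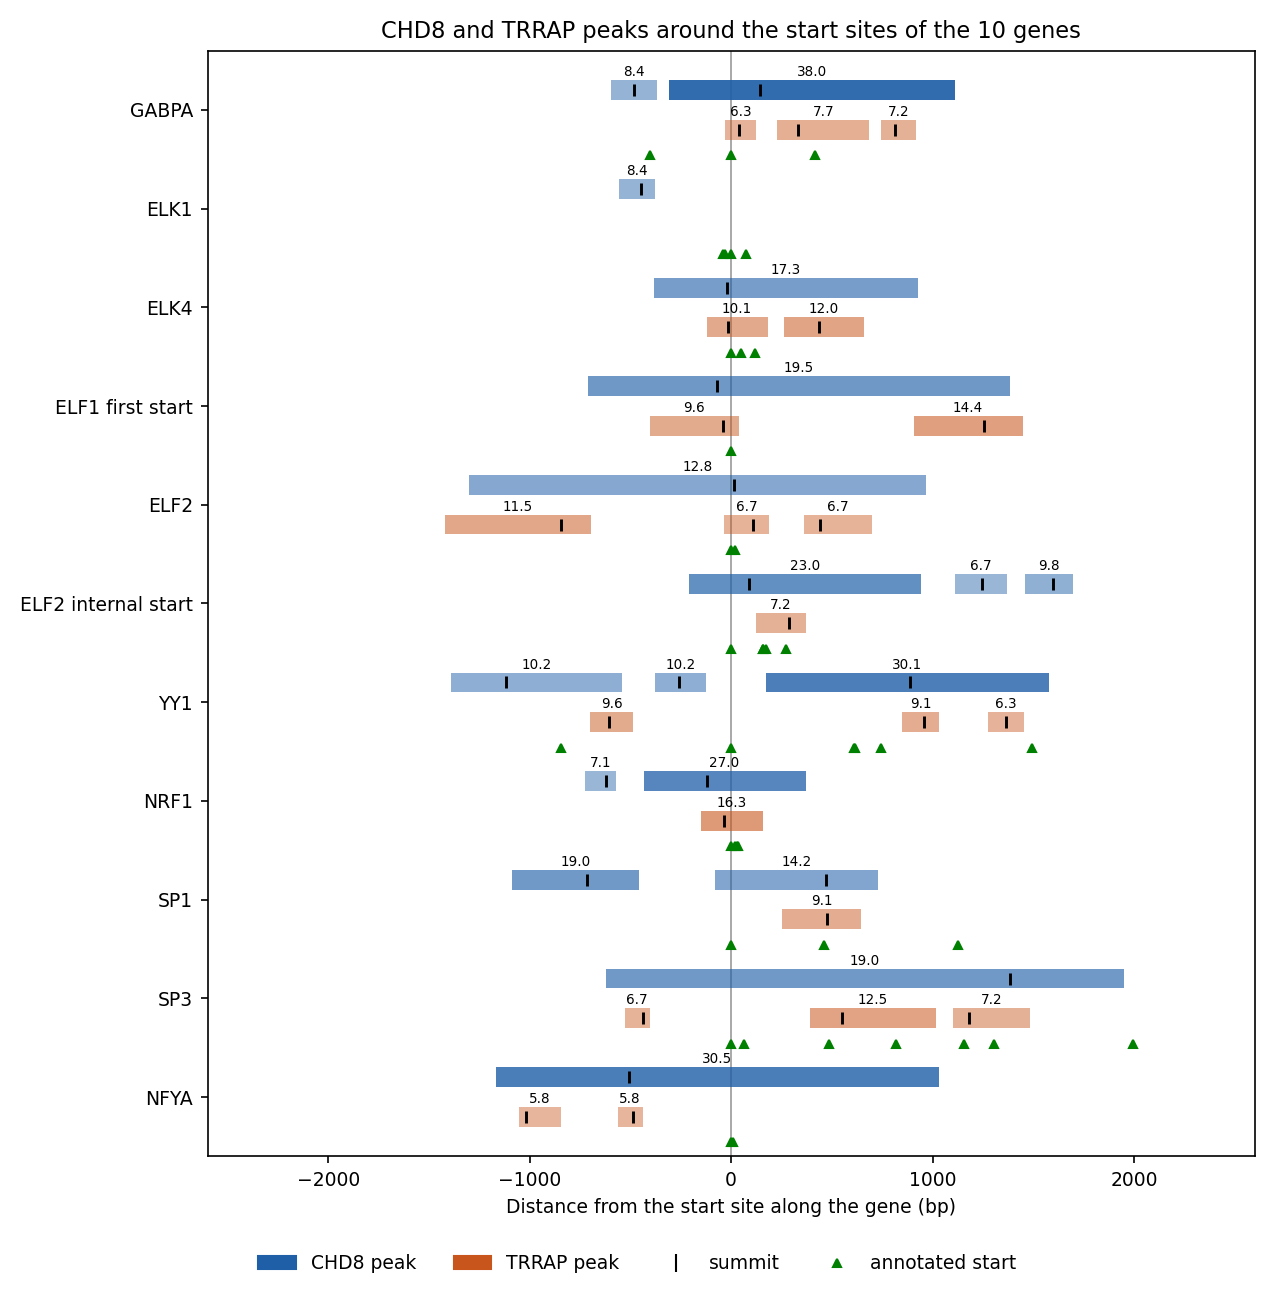
Peaks of CHD8 (upper bar of each row) and TRRAP (lower bar) drawn to scale against the distance from the start site along the gene in bp, with the fold of each peak above its bar, darker colour for higher fold, black ticks for summits and green triangles for annotated starts. Rows are centred on the canonical start, except ELF1 (its outermost start) and the internal start of ELF2, and broad CHD8 bars with 2 or 3 TRRAP bars beneath them are seen at 7 of the 10 genes.

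The lists held 23393 CHD8 and 14735 TRRAP peaks, with median folds of 9.31 and 8.17 and median widths of 376 bp and 229 bp. The fold is the authors' deposited ratio of the signal at a peak over the background of the caller. It served to order peaks within a list only. Folds lay on a grid with steps of 0.44 in the CHD8 list (161 distinct values) and 0.48 in the TRRAP list (148), and each fold had a single q-value. Genes at the same or at neighbouring values were therefore at the limit of what the lists resolve. The read totals are unknown, and peak lists hold no expression. Of 5 neural stem cell marker genes, all with CpG-rich promoters, 5 had a CHD8 and 4 a TRRAP promoter peak. Of all genes with a CpG-rich promoter, 77.9% and 50.7% did. Of 3 neuron markers, 2 of them with a CpG-rich promoter, 1 had both: MAP2, with folds of 8.43 for CHD8 and 27.3 for TRRAP. RBFOX3, with a CpG-rich promoter, and DCX, without one, had neither. The pluripotency genes POU5F1 and NANOG and the blood genes PTPRC and HBB, none with a CpG-rich promoter, had neither. These counts therefore do not identify the cell type.

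GABPA, the DNA-binding subunit of GA-binding protein, carried the strongest CHD8 peak of the 10 genes. Its gene lies on chromosome 21 at 25734570 to 25772460 on the plus strand. The CHD8 peak at chr21:25734663-25736084 was 1422 bp wide and had a fold of 38.0 (−log10 q 110.9), with the summit in the 5′ UTR in exon 1, 145 bp downstream of the start. A second, weaker CHD8 peak at chr21:25734374-25734606 had a fold of 8.43. Its summit lay 78 bp from another annotated start of GABPA, which is 402 bp upstream of the canonical one. A further start lies 417 bp downstream of the canonical one. The promoter is shared: ATP5PF, which encodes a subunit of the mitochondrial ATP synthase, starts 68 bp upstream on the opposite strand. The peaks cannot be assigned to either gene alone. TRRAP was present in 3 peaks of 154, 459 and 178 bp under the CHD8 peak, with folds of 6.26, 7.69 and 7.21 and summits 40, 330 and 816 bp downstream of the start. The highest of these stood at the 33.5th percentile of the TRRAP promoter folds of all genes with such a peak, whereas the CHD8 fold stood at the 97.9th percentile of its own list's genes. Words of all 5 kinds searched occurred under the CHD8 peak, on either strand and without mismatch: 2 ETS words (CCGGAAG), 1 YY1 word (AAGATGGC), 1 NRF1 word (GCGCATGC), 2 SP words (GGGCGGGG) and 1 CCAAT word. Only 14 of 12578 CHD8 promoter peaks held every kind, and 13 of the 14 were among the 1750 of at least 1000 bp, so that width enters this count. The peak of GABPA was 1 of them and that of NFYA another; this count was made after the words had been seen. Of these, an ETS word lay 60 to 66 bp upstream of the start, between the canonical starts of GABPA and ATP5PF. The piece printed for it below is exonic throughout in an annotated transcript. A further ETS word lay 106 to 112 bp downstream and the YY1 word 132 to 139 bp downstream, 6 bp from the CHD8 summit. The pieces below show these words in capitals, 5′ to 3′ on the strand of the gene (GRCh38), at chr21:25734905-25734934, chr21:25735072-25735090 and chr21:25735099-25735119.
GABPA between the starts: aCTTCCGGccctggctccgcccccacacgc
GABPA exon 1, ETS word: taagtgCTTCCGGgtcccc
GABPA exon 1, YY1 word: cctccGCCATCTTttcttcgc

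ELK1 and ELK4 encode ternary complex factors, ETS proteins that bind DNA together with serum response factor and respond to MAP kinase signalling. These related genes stood apart in the lists. ELK4 (chromosome 1, 205597556 to 205632011, minus strand) had a CHD8 peak of 1313 bp at chr1:205631084-205632396 with a fold of 17.3, and its summit lay 22 bp upstream of the start. Under it lay 2 TRRAP peaks. The TRRAP peak at chr1:205631830-205632133 had a fold of 10.1 and its summit 14 bp upstream, 8 bp from the CHD8 summit. The TRRAP peak at chr1:205631352-205631750 had a fold of 12.0, with its summit in intron 1, 434 bp downstream of the start. The only ETS word within 500 bp of the ELK4 start spanned 22 to 16 bp upstream, so that the CHD8 summit lay on it and the TRRAP summit 2 bp beside it. The ELK4 sequence is shown because both summits lay on or within 2 bp of 1 word there. It covers the 60 bases upstream of the start (chr1:205632012-205632071, minus strand), with the word in capitals.
ELK4 upstream: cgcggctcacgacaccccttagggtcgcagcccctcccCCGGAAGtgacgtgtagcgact

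ELK1 (chromosome X, 47635521 to 47650604, minus strand) had a single CHD8 peak of 180 bp at chrX:47650942-47651121. Its fold of 8.43 stood at the 17.4th percentile of genes with a CHD8 promoter peak, and its summit lay 448 bp upstream of the canonical start. No TRRAP peak was listed from 5 kb upstream of ELK1 to its end, which does not show that TRRAP was absent below the threshold of the list. The ELK1 start was CpG-rich (CpG ratio 0.682), as was that of ELK4 (0.941). It held 6 CCAAT words and 2 SP words within 500 bp, and no ETS word. That number of CCAAT words was reached by 1.11% of all protein-coding genes, SP1 among them. In the stretch from 245 to 50 bp upstream (chrX:47650613-47650808, minus strand), 4 of the CCAAT words are in capitals. CHD8 was not listed over this stretch.
ELK1 upstream: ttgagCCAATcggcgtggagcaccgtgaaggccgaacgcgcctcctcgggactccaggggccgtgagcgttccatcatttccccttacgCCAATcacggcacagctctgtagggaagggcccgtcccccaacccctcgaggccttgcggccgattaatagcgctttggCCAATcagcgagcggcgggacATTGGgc

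ELF1 and ELF2 encode ETS activators of the ELF subfamily. Both genes had peaks at a start other than the canonical one, ELF1 in place of it and ELF2 in addition to it. ELF1 (chromosome 13, 40931924 to 41061440, minus strand) has its canonical start at 41019316, in sequence poor in CpG (CpG ratio 0.170, GC 34.3%), and no peak of either list lay within 1 kb of it. The outermost start, 42124 bp further upstream, had a CpG ratio of 0.842. There a CHD8 peak of 2097 bp at chr13:41060055-41062151 had a fold of 19.5, with its summit 71 bp upstream of that start. The 2 TRRAP peaks of ELF1 overlapped this CHD8 peak. The peak at chr13:41061403-41061843 had a fold of 9.60 and its summit 41 bp upstream of the outermost start. The peak at chr13:41059992-41060534 had a higher fold, 14.4, and its summit lay 1258 bp inside the gene, in intron 1.

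At ELF2 (chromosome 4, 139028112 to 139177218, minus strand), 2 promoters more than 92 kb apart were both occupied. At the canonical start, a CHD8 peak of 2268 bp (chr4:139176252-139178519) had a fold of 12.8, with the summit 12 bp downstream. It overlapped 3 TRRAP peaks, with folds of 11.5 (summit 843 bp upstream of the start), 6.73 (111 bp downstream) and 6.73 (439 bp downstream). A noncoding RNA starts 238 bp upstream of ELF2 on the opposite strand. A cluster of 5 internal starts lies 92722 to 92994 bp downstream of the canonical one. Another 4 internal starts, at 37742 bp and from 103499 to 116623 bp downstream, were CpG-poor and had no peak within 1 kb. At the cluster of 5 starts, a CHD8 peak of 1153 bp at chr4:139083555-139084707 had a fold of 23.01, higher than at the canonical start. The single TRRAP peak there (chr4:139084123-139084374) had a fold of 7.21, lower than the highest at the canonical start. Both CHD8 peaks without TRRAP at ELF2, with folds of 6.66 and 9.75, had their summits 973 and 1328 bp inside the cluster's innermost start. Within 100 bases upstream of the canonical start (chr4:139177219-139177318, minus strand), an SP word occupied 14 to 7 bp upstream, 19 bp from the CHD8 summit.
ELF2 upstream: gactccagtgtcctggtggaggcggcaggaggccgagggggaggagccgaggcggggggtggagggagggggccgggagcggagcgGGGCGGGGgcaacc

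YY1, a zinc finger factor that can activate or repress its targets, had its strongest CHD8 peak inside the gene. The gene lies on chromosome 14 at 100238298 to 100282788 on the plus strand, and its canonical start is at 100239144. The CHD8 peak at chr14:100239318-100240720 was 1403 bp wide with a fold of 30.1, and its summit lay in intron 1, 886 bp downstream of the canonical start. Other annotated starts of YY1 lie 610.0, 615 and 743 bp downstream, and the summit was 143 bp from the nearest of them. The other CHD8 peaks, at chr14:100237753-100238602 and chr14:100238767-100239018, lay upstream of the canonical start and each had a fold of 10.2. The outermost start of YY1 lies 846 bp upstream of the canonical one. The former peak had its summit 271 bp upstream of that outermost start, and the latter peak lay inside the gene. A TRRAP peak of 186 bp at chr14:100239993-100240178 had a fold of 9.12, with its summit 957 bp downstream, 71 bp from the CHD8 summit. A TRRAP peak of fold 9.60 (chr14:100238443-100238657) lay upstream of the canonical start, with its summit 241 bp inside the outermost start. Another of fold 6.26 lay further into intron 1 (chr14:100240420-100240597). A noncoding RNA starts 589 bp upstream of the canonical start on the opposite strand.

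The CHD8 peak in the intron of YY1 held 3 YY1 words, and all 3 fell within the 186 bp of the TRRAP peak. Of 12578 CHD8 promoter peaks, 1060 had at least 1 YY1 word, 72 at least 2 and 16 at least 3. By width, the peak of YY1 stood at the 95.4th percentile of genes with a CHD8 promoter peak. These word counts were not split by width. No YY1 word lay within 500 bp of the canonical start. The words spanned 860 to 867, 897 to 904 and 955 to 962 bp downstream of the start. The CHD8 summit lay 11 bp from the middle word, and the TRRAP summit lay inside the last. The whole TRRAP peak is printed to show how they are placed; it lies outside the exons of every annotated transcript, and the words are in capitals (the leftmost in reverse orientation).
YY1 intron 1: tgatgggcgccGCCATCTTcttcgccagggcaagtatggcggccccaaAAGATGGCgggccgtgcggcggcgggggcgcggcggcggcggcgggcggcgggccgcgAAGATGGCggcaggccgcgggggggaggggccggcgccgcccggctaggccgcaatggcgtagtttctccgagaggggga

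NRF1, which activates nuclear genes of the mitochondria, combined strong peaks of both proteins. The gene lies on chromosome 7 at 129611720 to 129757082 on the plus strand. The CHD8 peak at chr7:129611285-129612090 was 806 bp wide with a fold of 27.0, its summit 120.0 bp upstream of the start. The TRRAP peak at chr7:129611570-129611878 had a fold of 16.3, the highest of the 21 TRRAP peaks, with its summit 34 bp upstream and 86 bp from that of CHD8. A second CHD8 peak (chr7:129610995-129611148) had a fold of 7.10 and no TRRAP peak. A noncoding RNA starts 49 bp upstream on the opposite strand, so the promoter is divergent. The sequence from the CHD8 summit to the start (chr7:129611600-129611719), 72 bases of which are exon of the noncoding RNA, held 1 SP word, in capitals, 77 to 70 bp upstream. No NRF1 word occurred within 500 bp of the start of NRF1 itself. Exact words miss sites with a mismatch.
NRF1 upstream: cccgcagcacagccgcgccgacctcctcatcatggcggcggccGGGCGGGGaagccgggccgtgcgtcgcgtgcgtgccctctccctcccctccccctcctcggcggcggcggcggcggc

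SP1 and SP3 encode closely related zinc finger proteins that compete for GC boxes, and their strongest CHD8 peaks had the same fold, 19.0. At SP1 (chromosome 12, 53380176 to 53416446, plus strand), this peak lay away from the start and had no TRRAP. It spanned 632 bp at chr12:53379087-53379718, and its summit lay 718 bp upstream. The peak at the start, chr12:53380094-53380906, had a fold of 14.2. Its summit 472 bp downstream lay 9 bp from an alternative start of SP1. The TRRAP peak of SP1 (chr12:53380427-53380823, fold 9.12) had its summit 6 bp from that CHD8 summit. Thus the summits of both proteins met at the alternative start rather than at the canonical one.

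The 2 CHD8 peaks of SP1 also differed in their words. The upstream peak held 7 CCAAT words and no SP word, and the peak at the start held 1 CCAAT word and 4 SP words. At least 7 CCAAT words were found in 30 of the 12578 CHD8 promoter peaks. Directly upstream of the canonical start, the GC box occurred at 65 to 58 and at 46 to 39 bp, the former overlapping a CCAAT word in reverse orientation. Both stretches are printed with SP and CCAAT words in capitals: the 100 bases upstream of the start (chr12:53380076-53380175) and 130 bases at the upstream summit (chr12:53379446-53379575), in which the leftmost CCAAT word lies 5 bp from the summit.
SP1 upstream: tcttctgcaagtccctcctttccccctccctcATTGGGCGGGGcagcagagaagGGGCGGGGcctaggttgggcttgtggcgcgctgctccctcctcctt
SP1 at the upstream CHD8 peak: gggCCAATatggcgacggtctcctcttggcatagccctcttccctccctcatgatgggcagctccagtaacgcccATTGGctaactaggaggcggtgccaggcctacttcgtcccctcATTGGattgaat

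SP3 (chromosome 2, 173880850 to 173965373, minus strand) had the widest CHD8 peak of the 10 genes. It covered 2572 bp at chr2:173963423-173965994, from upstream of the canonical start into the gene, and 7 of the 11 annotated starts of SP3 lay within 1 kb of it. Its summit lay 1387 bp downstream of the canonical start but 83 bp from another. Of all genes with a CHD8 promoter peak, its width stood at the 99.9th percentile. Under it lay 3 TRRAP peaks. The highest, at chr2:173964356-173964980, had a fold of 12.5 and its summit 551 bp downstream. The others had folds of 7.21 (1179 bp downstream) and 6.73 (440.0 bp upstream). A noncoding RNA starts less than 1 kb upstream of SP3 on the opposite strand. A CCAAT word lay 74 to 70 bp upstream of the canonical start, as shown in the 100 bases before it (chr2:173965374-173965473, minus strand). No SP word was found within 500 bp of the canonical SP3 start, though the CHD8 peak as a whole held 4.
SP3 upstream: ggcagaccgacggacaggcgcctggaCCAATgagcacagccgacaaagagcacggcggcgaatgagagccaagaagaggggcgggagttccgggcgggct

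NFYA, the subunit of NFY that contacts the CCAAT box, had a strong CHD8 peak and the weakest TRRAP peaks. The gene lies on chromosome 6 at 41072974 to 41102403 on the plus strand. The CHD8 peak at chr6:41071806-41074004 was 2199 bp wide with a fold of 30.5, and its summit lay 509 bp upstream of the NFYA start. That is close to OARD1, whose product removes ADP-ribose from proteins and which starts 618 bp upstream of NFYA on the opposite strand. The TRRAP peaks at chr6:41071921-41072128 and chr6:41072411-41072535 both had a fold of 5.78, at the 3.38th percentile of genes with a TRRAP promoter peak. Their summits lay 1018 and 489 bp upstream, and TRRAP was not listed at the NFYA start itself. As at GABPA, the peaks cannot be assigned to one gene of the pair.

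The CHD8 and TRRAP summits upstream of NFYA, 20 bp apart, stood on both sides of a YY1 word (505 to 498 bp upstream), and the TRRAP summit lay in an SP word (494 to 487 bp upstream). These words are shown in 30 bases at chr6:41072458-41072487, which lie upstream of NFYA and are exonic in a transcript of another gene. The same CHD8 peak held 5 CCAAT, 3 SP, 1 ETS and 1 NRF1 words, and thus every kind searched. Of CCAAT words, 4 lay within 500 bp of the start, all downstream of it, and this number was reached by 6.16% of genes. The stretch of intron 1 at chr6:41073089-41073144 shows 2 of these CCAAT words in capitals, in opposite orientation.
NFYA upstream, at the summits: tgcacgcatctAAGATGGCcgcCCCCGCCC
NFYA intron 1: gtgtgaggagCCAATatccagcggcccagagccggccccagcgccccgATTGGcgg

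The starts of each gene were then compared by their CpG content. The 10 genes have 59 annotated start sites, some of them within the reach of the same peak. All 39 starts with a CpG ratio of at least 0.6 had a CHD8 peak within 1 kb, and 35 had a TRRAP peak, where the 4 without TRRAP were those of ELK1. Among the 20 starts with a lower CpG ratio, 1 had a CHD8 peak and 1 a TRRAP peak, at the same start of SP1, 1126 bp downstream of the canonical one. Over the annotated starts of all protein-coding genes, a CHD8 peak lay near 81.9% of starts with a CpG ratio of at least 0.6 and near 11.0% of the others. For TRRAP these were 54.0% and 5.06%. The starts of the 10 genes thus divided by CpG ratio in the direction of all genes. This includes the internal starts of ELF2 near 93 kb, which were CpG-rich and occupied, and the internal starts of ELF1, which were CpG-poor and not occupied.

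By fold, the strongest CHD8 promoter peak ordered the genes as GABPA (38.0), NFYA (30.5), YY1 (30.1), NRF1 (27.0), SP1 and SP3 (19.0 each), ELK4 (17.3), ELF2 (12.8) and ELK1 (8.43). NFYA and YY1 were 1 step of the fold grid apart, and SP1 and SP3 were tied. The median over the 9 genes was 19.0, beside a median of 12.0 over the 11208 genes with a CHD8 promoter peak. In percentiles of those genes, the median of the 9 was 82.6, and 8 of the 9 stood above the 50th percentile and 4 above the 90th. For TRRAP the order was NRF1 (16.3), SP3 (12.5), ELK4 (12.0), ELF2 (11.5), YY1 (9.60), SP1 (9.12), GABPA (7.69) and NFYA (5.78). SP3, ELK4 and ELF2 followed each other at 1 step of the grid, as did YY1 and SP1. The median TRRAP fold was 10.6, beside 8.65 over 7000 genes, and its median percentile was 67.1, with 6 of 8 genes above the 50th and 1 above the 90th. With the TRRAP peak nearest to the start in place of the strongest, the median percentile was 38.6, and the CHD8 value was 78.4.

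**Figure D2:**
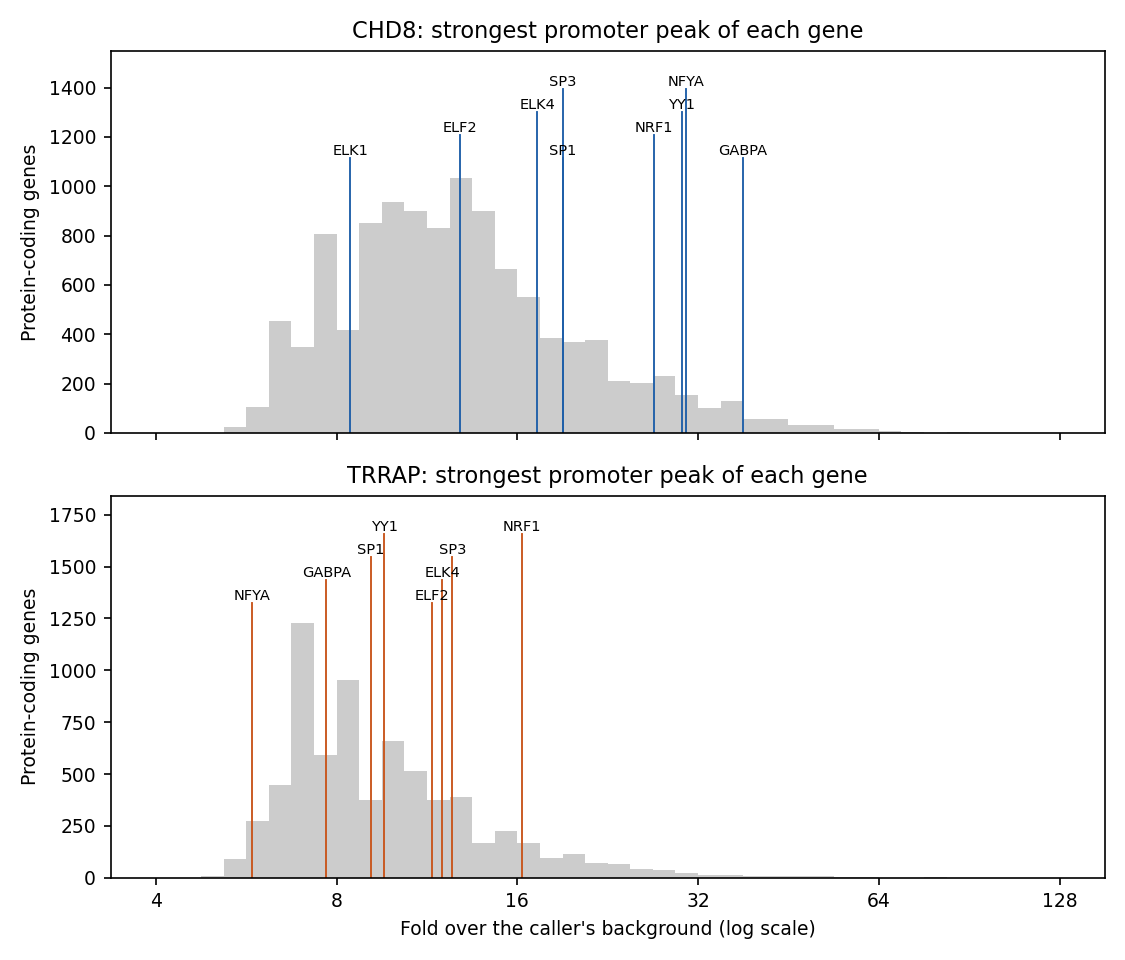
Number of protein-coding genes (grey bars, linear axis) by the fold of their strongest promoter peak (log axis) for CHD8 (top) and TRRAP (bottom), with a coloured line for each of the genes described that has a promoter peak. In the CHD8 panel 4 genes (NRF1, YY1, NFYA and GABPA) lie in the upper tail above a fold of 26, while in the TRRAP panel only NRF1 exceeds 16 and NFYA lies at the lower edge.

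The orders of the 2 lists did not match. GABPA and NFYA were 1st and 2nd for CHD8 and last for TRRAP, while NRF1 was high in both. Over the 8 genes with both promoter peaks, Spearman's rho of the CHD8 and TRRAP folds was −0.55, and over the 6802 genes with both it was 0.14. These are correlations across genes within the same pair of libraries, given as a description; the points share both libraries and, for shared promoters, the neighbouring gene. Both genes with the low TRRAP and high CHD8 folds share their promoter with a protein-coding neighbour, ATP5PF or OARD1. The part of the neighbours in this was not tested.

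**Figure D3:**
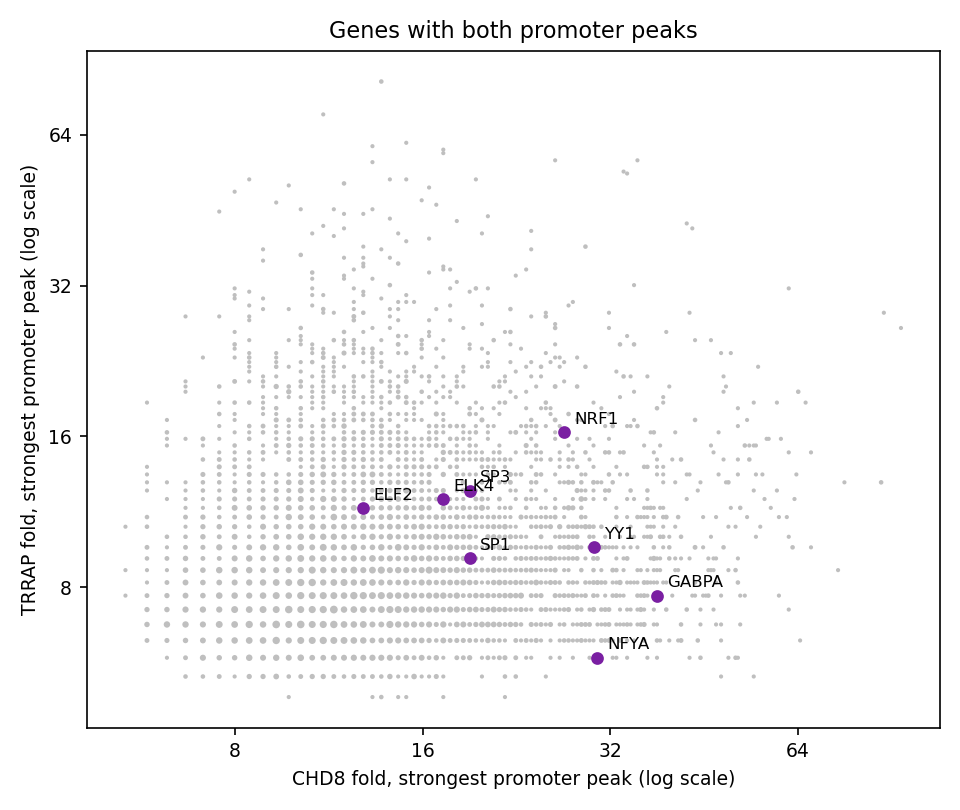
Fold of the strongest CHD8 (x axis) and TRRAP (y axis) promoter peak of each gene with both, on log axes, with grey dots for all 6802 genes (larger where more genes share a pair of values) and purple dots for the 8 genes described. NRF1 is high on both axes, and NFYA and GABPA combine CHD8 folds above 30 with TRRAP folds below 8.

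The CHD8 peaks of these genes were broad. The strongest CHD8 promoter peak had a median width of 1403 bp in the 9 genes, beside 638 bp over all genes with one. In 6 of the 9 genes (SP3, ELF2, NFYA, GABPA, YY1 and ELK4) it was at least 1000 bp wide, as in 18.5% of all genes with a CHD8 promoter peak. The internal peak of ELF2 and the peak at the outermost start of ELF1 were also wider than this. All 6 of the strongest promoter peaks of this width overlapped at least 2 TRRAP peaks, beside 35.8% of all genes whose strongest CHD8 promoter peak was at least that wide (a peak shared by neighbouring genes counts for each). TRRAP peaks covered 55.6% of the CHD8 peak at GABPA, 53.5% at ELK4, 51.4% at ELF2 and 44.05% at SP3, but 25.9% at YY1 and 15.1% at NFYA. The narrower peaks of NRF1, SP1 and ELK1 overlapped 1, 0 and 0 TRRAP peaks. The 7 CHD8 peaks without TRRAP had folds of at most 10.2 and widths of at most 257 bp, except the upstream peak of SP1 with its fold of 19.0. Where both were present, the summit of a TRRAP peak lay a median of 208 bp from the nearest summit of an overlapping CHD8 peak.

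**Figure D4:**
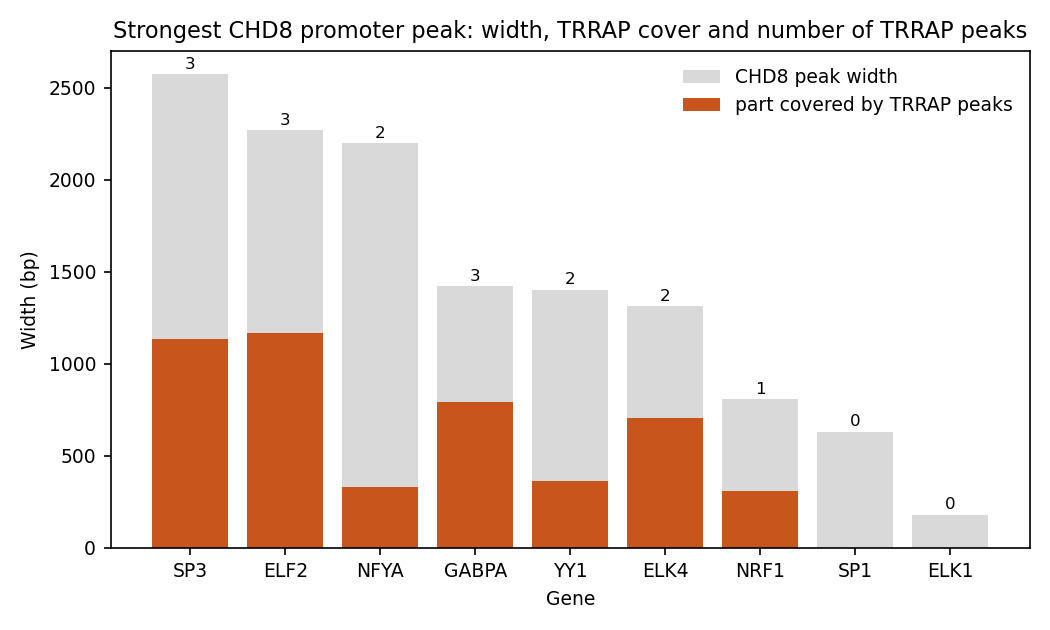
Width in bp of the strongest CHD8 promoter peak of each gene (grey bars), the part of it covered by TRRAP peaks (orange) and the number of TRRAP peaks overlapping it (above the bar). Bars start at 0. The 6 widest peaks, from 2572 bp at SP3 to 1313 bp at ELK4, each overlap 2 or 3 TRRAP peaks, and the cover is smallest among them at NFYA.

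Consensus words were counted in the 250 bases before to 50 after the canonical start, on both strands and without mismatch. Each count was set beside its share in all 20033 promoters of that length. The ETS word CCGGAAG was found at 2 of the 10 genes, GABPA and ELK4, both of them ETS genes (14.1% of all promoters). The SP word GGGCGGGG was found at 4 (ELF2, YY1, NRF1 and SP1; 34.0% of all promoters) and the CCAAT word at 5 (ELK1, ELF1, SP1, SP3 and NFYA; 36.1%). SP and CCAAT words overlapped at SP1 alone among the printed stretches. The YY1 word AAGATGGC (4.04% of all promoters) and the NRF1 word GCGCATGC (4.27%) were found at none of the 10. Among the 11208 genes with a CHD8 promoter peak, the share of every word was higher than among all promoters. For these genes it was 43.3% for the SP word, 37.5% for CCAAT, 6.54% for YY1 and 6.49% for NRF1. The 10 are not all such genes, because ELF1, among the 5 with a CCAAT word, had no CHD8 promoter peak. The counts of the 10 were therefore not ranked against the shares of genes with a CHD8 promoter peak. A gene of a factor thus carried the word of its own family in this window at GABPA, ELK4, SP1 and NFYA, and not at ELK1, ELF1, ELF2, YY1, NRF1 or SP3. Under the CHD8 peaks as a whole, YY1 and SP3 also held their own word, and ELK1, ELF1, ELF2 and NRF1 did not. A match is a description of sequence and not of binding.

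The partners of these factors are the β subunits of GABP and the other subunits of NFY. GABPB1, which carries the activation domain of GABP, had a CHD8 fold of 46.4 (chr15:50353972-50355691) and a TRRAP fold of 24.9, both above those of GABPA. GABPB2 had a CHD8 fold of 11.5 and no TRRAP promoter peak. The NFY subunit genes NFYC and NFYB had CHD8 folds of 30.1 and 14.2 and TRRAP folds of 10.1 and 8.65, both of the latter above the 5.78 of NFYA. All 4 partner genes, each with a CpG-rich promoter, thus had a CHD8 promoter peak and 3 a TRRAP promoter peak, where 77.9% and 50.7% of genes with a CpG-rich promoter did.

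Within the whole families, promoter peaks were listed at CpG-rich canonical starts alone. Of the 28 genes of the ETS family, 12 had a CHD8 and 8 a TRRAP promoter peak, and all of these were among the 16 with a CpG-rich promoter. The shares over all genes were 55.9% and 34.9%, and over genes with a CpG-rich promoter 77.9% and 50.7%, so the family stood near the background of CpG-rich genes. Without the 5 members described above, 8 of the other 23 ETS genes had a CHD8 and 5 a TRRAP promoter peak. After GABPA, the highest CHD8 folds at canonical starts of the family were those of ELK4 and ETV3, a repressor, at 17.3 each. At other starts, ELF2 and ELF1 had CHD8 folds of 23.01 and 19.5. Of the 9 SP genes, 5 had a CHD8 and 6 a TRRAP promoter peak. All of these were among the 8 with a CpG-rich promoter, beside 77.9% and 50.7% of all such genes. SP8 had a TRRAP but no CHD8 promoter peak. Without SP1 and SP3, 3 of the other 7 had a CHD8 and 4 a TRRAP promoter peak. SP2 followed SP1 and SP3 with a CHD8 fold of 14.6. Of 16 other factors of CpG-rich promoters, all with CpG-rich starts, 14 had a CHD8 and 12 a TRRAP promoter peak, to be read against the same 77.9% and 50.7%. Their highest CHD8 folds were 64.1 at HCFC1, a co-regulator recruited by several promoter factors, 54.8 at USF1, which binds E-boxes, and 47.8 at ATF1, which binds cyclic AMP response elements. USF1 had no TRRAP promoter peak, and HCFC1 and ATF1 had TRRAP folds of 19.6 and 16.3. All 3 exceeded GABPA in CHD8 fold, so the 10 genes described did not hold the strongest CHD8 promoter peaks among such factors.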

How the data were processed

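The CHD8 and TRRAP peak lists of 1 library each were used as deposited. Per the submitters' processing notes, HISAT2, MACS2 2.1.1.20160309 and GRCh38 were used, with no role or order given; options and control are not given in the sources used here. The deposited lists give, per peak, the authors' fold (a ratio), −log10 p-value, −log10 q-value and a score of 10 times the −log10 q. Their names give a false discovery rate, 0.0001 for CHD8 and 0.001 for TRRAP. Read totals are unknown, so folds were ordered within a list only.

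Positions are counted from 1. Peaks were matched to GENCODE release 44 by an overlap of at least 1 bp, with canonical starts as the main choice and 1 kb promoter windows. The strongest peak was the one of highest fold, and percentiles count ties at their middle. Overlap and word searches were tested on made-up intervals and sequence. Genes were named as follows: all 10 genes, the 3 genes of each related list with the highest CHD8 fold, every partner subunit, and neighbours starting within 1 kb. Lists of markers fell outside this rule; those named were chosen after their values were seen. The members, lists and words were chosen with earlier results of these data known, so they support no pattern already seen. Printed stretches and the CCAAT and YY1 counts under single peaks were chosen after the data were seen. Whether peak sequence occurs more than once in the genome was not checked. Python 3.11.15, numpy 2.4.6, pandas 2.3.3, scipy 1.17.1 and matplotlib 3.10.9 were used.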

Additional observations from a re-analysis of the deposited data

How the results depend on the processing

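No paired analysis was possible because each antibody had 1 library, and no test was run. Counts of the 10 genes with promoter peaks ranged under the alternatives tried from 8 to 10 for CHD8, 6 to 9 for TRRAP and 6 to 9 for both. SP3 left the CHD8 count when the summit had to lie in the window. The share of all genes with a CHD8 promoter peak was 55.1% within 500 bp, 57.4% within 2500 bp, 59.2% at any start and 42.5% for peaks above the median rank. For TRRAP it was 33.5%, 36.4%, 38.3% and 19.5%. TRRAP peaks in the gene regions fell to 10 above the median rank and 10 of 21 had a CHD8 summit within 200 bp. Ordered by width, the median CHD8 percentile was 95.3. The median TRRAP percentile was 38.6 with the peak nearest to the start. Word counts depended on the window. The YY1 word was found at 1 gene within 250 bases on each side of the start and at 3 within 100 bases of the CHD8 summit, and the NRF1 word at 1 and 1. The longer SP and CCAAT words were found at 2 and 3 genes.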
